A study of Homo sapiens with 12 samples.

Results

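Integrins and laminins, the cell surface receptors for matrix and the cross-shaped proteins of basement membranes, were followed across fibroblasts with and without an active RAS oncogene. The genes were taken by symbol, and this family was chosen with earlier results of these data known. They were every integrin alpha, integrin beta and laminin chain gene in the table. These made up 38 of 62069 gene identifiers (18 integrin alpha, 8 integrin beta and 12 laminin genes). The RNA came from IMR90 ER:RAS, a line of fetal human lung fibroblasts with a RAS protein fused to a piece of the oestrogen receptor. The ligand 4-hydroxytamoxifen (4OHT) turns this RAS on. The 12 libraries formed 3 groups of 4: the solvent DMSO, called non-senescent by the submitters (libraries 17 to 20), 100 nM 4OHT, called senescent by them (libraries 21 to 24), and 4OHT plus 3-deazaadenosine (3DA), which blocks the enzyme AHCY and thereby slows methylation reactions (libraries 29 to 32). All cells carried ER:RAS and were at passage 15 and day 6. No dose or day of 3DA was found in the labels. Neither 3DA alone nor 4OHT in cells without ER:RAS was analysed here, so effects of 4OHT itself and of RAS cannot be told apart.

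An integrin is a pair of one alpha and one beta chain, and the pairing sets what the receptor binds. The beta1 chain pairs with many alpha chains that bind collagen, laminin or fibronectin, alpha V with several beta chains that bind the arginine-glycine-aspartate (RGD) motif, and beta2 with the alpha chains of leukocytes. A laminin is a trimer of one alpha, one beta and one gamma chain, and the alpha chain carries the main receptor-binding domains.

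The libraries held between 9451160 and 19291493 counted reads. Whether replicates were separate cultures is not labelled, so the p-values reflect the spread among these libraries alone, and that spread may be technical. Within the 4OHT+3DA group the libraries differed with transcript GC content: the deviation from the group mean had a rank correlation with GC content, across genes, of −0.61 in library 31, 0.33 in library 29 and 0.50 in library 32, and the other 9 libraries lay between −0.16 and 0.13. HRAS, whose reads can include those of an introduced RAS, was at 1608 ± 75.9 CPM with DMSO, 2292 ± 130.1 with 4OHT and 1841 ± 236 with 4OHT+3DA (SD, n = 4). All 10 fibroblast markers passed the filter on low counts, while PECAM1 and CDH5 (endothelial), NKX2-1, SFTPC and SCGB1A1 (lung epithelial) and CD3E (T cell) had no read in any library. Other markers of these cell types were read: 5 of 10 endothelial, 5 of 14 epithelial and 3 of 12 leukocyte and platelet markers passed the filter. In bulk RNA, fewer cells of a type and less RNA per cell cannot be told apart. Levels are given as CPM, the usual count scaled to library depth, here with TMM factors, as mean ± SD of 4 libraries per group or for each library in numerical order. Tests are edgeR quasi-likelihood tests, with p adjusted by Benjamini-Hochberg over the 13248 genes that passed the filter and a threshold of 0.05.

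Of the 38 genes, 26 passed the filter and were tested. With 4OHT against DMSO, 9 rose and 9 fell, 18 of 26 (69.2%) where 52.0% of all genes tested passed (26.5% higher and 25.5% lower). The 12 genes that failed the filter had too few reads in every group, so the 26 are not the whole family. The genes that rose included the collagen receptor ITGA2, the fibronectin receptor ITGA5, ITGAX, ITGB3, ITGB5, ITGA11, LAMA4 and LAMB1, and ITGA3, ITGA4, ITGA6, ITGA7, ITGA10, ITGAV, LAMA2, LAMA5 and LAMB2 fell. The median log2 fold change was −0.089 for these genes and −0.011 for all genes tested, and the median of the absolute values was 0.65 against 0.38. Scaled by library totals instead of TMM factors, the median of all genes moved to −0.17 and the calls of all genes to 2387 higher and 4723 lower, from 3511 and 3378. The integrin and laminin calls were then 9 higher and 13 lower, with ITGA1, ITGAE, ITGB1 and LAMC1 passing as lower. Changes of at least 2-fold passed for 9 of the 26, against 16.1% of all genes tested, and the libraries of 17 did not overlap, against 51.5%.

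**Figure D1:**
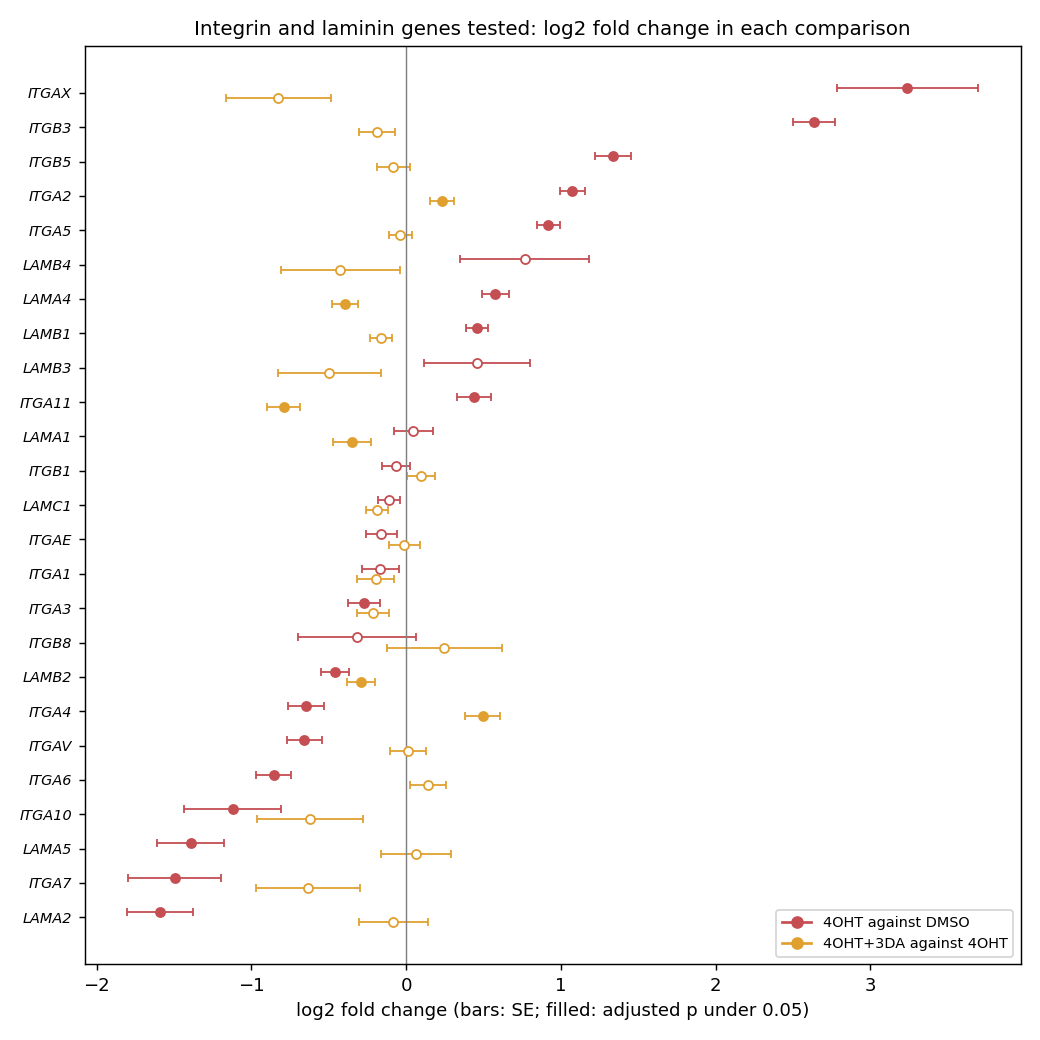
Log2 fold change (x axis) of 25 of the 26 integrin and laminin genes tested, with the SE as bars, for 4OHT against DMSO (red) and 4OHT+3DA against 4OHT (yellow). Filled points have an adjusted p under 0.05. The red points run from −1.59 (LAMA2) to 3.24 (ITGAX), while every yellow point lies between −0.83 (ITGAX) and 0.49 (ITGA4).

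The alpha chains that bind collagen did not move together. ITGA2 stood at 177, 171, 165 and 145 CPM in the DMSO libraries, 341, 315, 366 and 360.2 CPM in the 4OHT libraries and 389, 399, 462 and 372 CPM in the 4OHT+3DA libraries. Every 4OHT library was above every DMSO library, a 2.10-fold rise (log2 fold change 1.07, SE 0.081, edgeR adjusted p = 1.5e-09). ITGA11, a collagen receptor of fibroblasts, rose 1.36-fold, from 31.8 ± 4.53 to 43.0 ± 1.60 CPM (edgeR adjusted p = 0.0022). ITGA10 gave 3.82, 3.37, 1.57 and 2.56 CPM in the DMSO libraries, 1.16, 1.51, 1.31 and 1.20 CPM in the 4OHT libraries and 0.480, 0.876, 0.921 and 1.10 CPM in the 4OHT+3DA libraries. ITGA10, a collagen receptor known from cartilage, thus fell (log2 fold change −1.12, SE 0.31, edgeR adjusted p = 0.0055), with the 4OHT libraries all below the DMSO libraries. ITGA1, which like ITGA2 pairs with beta1, was at 30.7 ± 3.91 CPM with DMSO and 27.3 ± 1.83 CPM with 4OHT and did not pass (edgeR adjusted p = 0.25), although it passed as lower with library totals (log2 fold change −0.33). ITGA1 shares 475 exon bases with PELO and 571 with AC022133.1, both on its own strand (GENCODE 29), and reads there cannot be told apart.

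Among the RGD-binding alpha chains, the fibronectin receptor rose and alpha V fell. ITGA5 was at 537, 492, 498 and 478 CPM in the DMSO libraries, 954, 915, 955 and 962 CPM in the 4OHT libraries and 909, 929, 792 and 1057 CPM in the 4OHT+3DA libraries. The rise was 1.89-fold, with no overlap between DMSO and 4OHT (log2 fold change 0.92, SE 0.074, edgeR adjusted p = 3.5e-09). ITGAV, the common partner of beta3, beta5, beta6 and beta8, went down from 64.8 ± 3.46 to 40.9 ± 3.76 CPM (log2 fold change −0.66, SE 0.12, edgeR adjusted p = 8.5e-05). ITGA8 had 57 reads in all DMSO libraries together, 25 with 4OHT and 21 with 4OHT+3DA and was not tested, nor was the platelet chain ITGA2B with 12 reads in all libraries. ITGA4, which binds VCAM1 and fibronectin, fell 1.57-fold, from 28.8 ± 2.80 to 18.3 ± 2.19 CPM (edgeR adjusted p = 0.00011), and its relative ITGA9 had 32 reads in all.

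The 3 alpha chains known mainly as laminin receptors all fell. ITGA7 measured 4.40, 4.50, 4.61 and 3.81 CPM in the DMSO libraries, 1.16, 1.35, 1.24 and 2.26 CPM in the 4OHT libraries and 0.899, 1.49, 0.403 and 1.10 CPM in the 4OHT+3DA libraries. ITGA7, the laminin receptor of muscle, was lower in every 4OHT library than in any DMSO library, a 2.82-fold fall (log2 fold change −1.50, SE 0.30, edgeR adjusted p = 0.00034). ITGA6, which with beta4 forms the hemidesmosome receptor, dropped from 68.3 ± 3.56 to 37.7 ± 3.39 CPM (log2 fold change −0.86, SE 0.11, edgeR adjusted p = 3.7e-06). ITGA3, the laminin receptor of epithelia, fell by less, from 80.4 ± 7.37 to 66.5 ± 5.69 CPM (edgeR adjusted p = 0.036), its libraries overlapped, and the call ended without DMSO library 17 or 18 or 4OHT library 21, 22 or 23 (log2 fold change −0.27 to −0.21). Beside these falls, 3 of 5 epithelial markers tested fell, where 25.5% of all genes tested passed as lower. The sum of the 14 listed went from at least 124 CPM in the DMSO libraries to at most 59.9 CPM in the 4OHT libraries. Of the 14, NKX2-1, SFTPC and SCGB1A1 had no read in any library, and the part of such cells was not tested.

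ITGAX, the alpha X chain known from dendritic cells and macrophages, had the highest fold change of the 26 genes at a low level. ITGAX read 0.685, 0.450, 0 and 0.220 CPM in the DMSO libraries, 4.35, 3.19, 2.41 and 3.06 CPM in the 4OHT libraries and 1.68, 2.16, 1.09 and 2.35 CPM in the 4OHT+3DA libraries. The 4OHT libraries lay above all DMSO libraries, and the fitted rise was 9.43-fold (log2 fold change 3.24, SE 0.46, edgeR adjusted p = 7.1e-06), from 16 reads in the DMSO libraries together to 166 in the 4OHT libraries. With 7, 6, 0 and 3 reads in the DMSO libraries, ITGAX passed the filter only through the groups given 4OHT, where it is high. The call and the gap between groups for ITGAX are to be read with this limit. Its only known partner, ITGB2, had 1 read in 12 libraries, and none in the 4OHT libraries, which allows up to 0.0545 CPM (3 reads, counting error only). The leukocyte alpha chains ITGAL and ITGAD had 46 and 19 reads in all. ITGAM, the neighbour of ITGAX, had none, which allows up to 0.0177 CPM. Of 12 leukocyte and platelet markers 3 passed the filter, and the level summed over the 12 ran from 7.84 to 11.3 CPM with DMSO, 7.46 to 10.1 CPM with 4OHT and 8.81 to 11.1 CPM with 4OHT+3DA. All 3 passed the test of 4OHT against DMSO, FCER1G and CSF1R as higher and CORO1A as lower, where 52.0% of all genes tested passed. The pan-leukocyte marker PTPRC had 2, 22 and 28 reads in the DMSO, 4OHT and 4OHT+3DA groups. The platelet gene PF4 had 0, 28 and 56 reads. These are raw reads, and mean depth rose in the same order of groups. The part of such cells in the ITGAX result was not tested. ITGAE, which pairs with beta7 on lymphocytes in the gut, was at 53.6 ± 6.80 CPM with DMSO, 48.1 ± 3.85 with 4OHT and 47.6 ± 4.29 with 4OHT+3DA and passed in none of the 3 comparisons (edgeR adjusted p = 0.18, 0.94 and 0.15). ITGAE shares 427 exon bases with HASPIN on the opposite strand (GENCODE 29), and the kit does not mark strand, so their reads cannot be told apart there. Its partner ITGB7 had 7 reads with DMSO and none in the other groups.

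Of the beta chains, ITGB1 dominated and did not pass the test, while ITGB3 and ITGB5 rose. ITGB1, the shared partner of most alpha chains named above, was at 2438 ± 129 CPM with DMSO, 2325 ± 103 with 4OHT and 2485 ± 455 with 4OHT+3DA (edgeR adjusted p = 0.55 for 4OHT against DMSO, and 0.035 as lower with library totals). ITGB3 stood at 5.97, 8.92, 8.21 and 5.57 CPM in the DMSO libraries, 45.7, 48.8, 40.4 and 43.5 CPM in the 4OHT libraries and 35.6, 44.5, 36.5 and 39.3 CPM in the 4OHT+3DA libraries. The 4OHT libraries of ITGB3, a partner of alpha V that binds vitronectin and osteopontin, were all at least 40.4 CPM and the DMSO libraries at most 8.92 CPM (6.20-fold, log2 fold change 2.63, SE 0.14, edgeR adjusted p = 4.5e-12). In GENCODE 29 ITGB3 shares 2266 exon bases with the same-strand gene AC068234.1, so reads of the 2 genes cannot be told apart there. ITGB5 reached 18.1, 19.7, 17.2 and 18.02 CPM in the DMSO libraries, 46.0, 50.9, 42.4 and 45.5 CPM in the 4OHT libraries and 39.0, 43.2, 37.7 and 54.6 CPM in the 4OHT+3DA libraries. ITGB5, another vitronectin-binding partner of alpha V, rose 2.52-fold without overlap (log2 fold change 1.34, SE 0.11, edgeR adjusted p = 8.6e-09). ITGAV itself fell in the same libraries. ITGB8, whose pair with alpha V activates TGF-beta, stood at 2.10 ± 1.04 CPM with DMSO and 1.69 ± 0.277 CPM with 4OHT (edgeR adjusted p = 0.51). ITGB4, the hemidesmosome chain, and ITGB6, the epithelial partner of alpha V, had 22 reads each in all libraries together and were not tested.

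**Figure D2:**
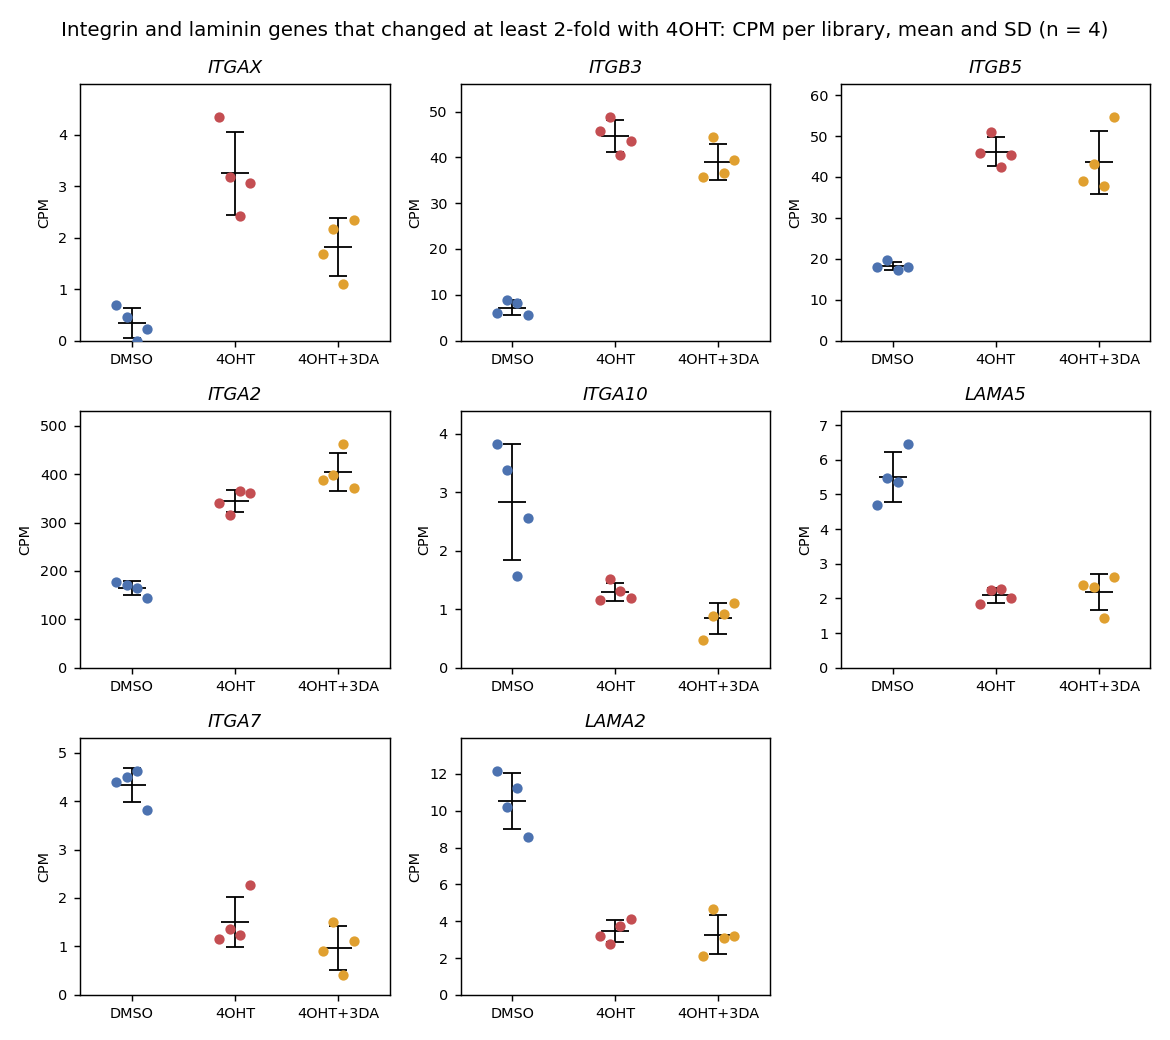
CPM (y axis, from 0) in each library (points) of 8 of the 9 genes that changed at least 2-fold with 4OHT and passed the test, by group, with mean and SD (n = 4). In all 8 panels the DMSO points lie apart from the 4OHT points, and the 4OHT+3DA points lie on the 4OHT side of the DMSO points.

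The laminin alpha chains moved in both directions. LAMA2 stood at 12.1, 10.2, 11.3 and 8.57 CPM in the DMSO libraries, 3.19, 2.79, 3.73 and 4.13 CPM in the 4OHT libraries and 2.10, 4.69, 3.11 and 3.17 CPM in the 4OHT+3DA libraries. LAMA2, the alpha chain of muscle and mesenchymal laminin, fell 3.01-fold and its groups did not overlap (log2 fold change −1.59, SE 0.21, edgeR adjusted p = 3.5e-06). LAMA5 ran at 4.70, 5.47, 5.35 and 6.45 CPM in the DMSO libraries, 1.84, 2.23, 2.28 and 1.998 CPM in the 4OHT libraries and 2.40, 2.32, 1.44 and 2.62 CPM in the 4OHT+3DA libraries. LAMA5, the alpha chain found in most mature basement membranes, fell 2.63-fold, again without overlap (log2 fold change −1.39, SE 0.22, edgeR adjusted p = 2.1e-05). LAMA5 shares 244 exon bases with ADRM1 on the opposite strand. LAMA4, the alpha chain of endothelial and mesenchymal laminins, rose 1.49-fold, from 46.2 ± 3.55 to 68.8 ± 4.81 CPM (edgeR adjusted p = 1.8e-05). Beside LAMA4, the 10 endothelial markers summed to 21.03 to 23.5 CPM with DMSO, 40.8 to 44.6 CPM with 4OHT and 22.7 to 28.3 CPM with 4OHT+3DA. Of these 10 markers 5 passed the filter and 3 rose, where 26.5% of all genes tested passed as higher. PECAM1 and CDH5 stayed at 0, and the part of such cells in the LAMA4 result was not tested. LAMA1, an alpha chain known from the embryo, was at 15.6 ± 1.56 CPM with DMSO and 16.1 ± 1.63 CPM with 4OHT (edgeR adjusted p = 0.78), and 1641 of its exon bases overlap the opposite-strand gene AP002409.1.

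The beta chains split. LAMB1, the widespread beta chain, rose from 125 ± 6.13 to 172 ± 8.81 CPM (log2 fold change 0.46, SE 0.071, edgeR adjusted p = 2.1e-05). LAMB2, the beta chain of synaptic and kidney laminins, went down from 200.3 ± 13.1 to 146 ± 3.80 CPM (log2 fold change −0.46, SE 0.090, edgeR adjusted p = 0.00026). LAMC1, the usual gamma chain, was at 92.1 ± 4.69 and 85.3 ± 4.45 CPM and did not pass (edgeR adjusted p = 0.22). LAMB3, the beta chain of a laminin of epithelia, was at 2.65 ± 1.004 CPM with DMSO and 3.57 ± 0.897 CPM with 4OHT (edgeR adjusted p = 0.28), and its alpha partner LAMA3 had 9 reads in the DMSO libraries, 12 in the 4OHT libraries and 5 in the 4OHT+3DA libraries. The 14 epithelial markers summed to 124 to 147 CPM with DMSO, 55.1 to 59.9 CPM with 4OHT and 42.0 to 53.7 CPM with 4OHT+3DA beside these, NKX2-1, SFTPC and SCGB1A1 staying at 0. LAMB4 stood at 0.828 ± 0.335 and 1.40 ± 0.436 CPM and did not pass (edgeR adjusted p = 0.13), and LAMC3 had 10 reads in all.

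To compare levels between genes, CPM was divided by the length of the longest GENCODE 29 transcript with a RefSeq match. On this scale (CPM per kilobase), ITGB1 was highest in every group, at 644 ± 34.0 with DMSO, 615 ± 27.3 with 4OHT and 657 ± 120.3 with 4OHT+3DA. ITGA5 came next, with 113 ± 5.72, 213 ± 4.77 and 207 ± 24.4. ITGA2 was the fifth of the 38 genes with DMSO and the third in both other groups, ITGB3 the sixteenth with DMSO and the eighth with 4OHT. As a share of all integrin alpha chains per kilobase, ITGA5 made up 55.0% ± 0.844 with DMSO, 67.7% ± 0.620 with 4OHT and 66.3% ± 3.93 with 4OHT+3DA. Within the collagen-binding alpha chains ITGA2 made up 64.7% ± 1.36 with DMSO, 76.2% ± 1.49 with 4OHT and 85.5% ± 1.88 with 4OHT+3DA. ITGB1 was 99.0% ± 0.0418 with DMSO, 96.5% ± 0.369 with 4OHT and 97.0% ± 0.642 with 4OHT+3DA of the beta chains, and among the other beta chains ITGB3 was 28.1% ± 4.37 with DMSO, 50.8% ± 0.467 with 4OHT and 48.9% ± 3.73 with 4OHT+3DA.

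**Figure D3:**
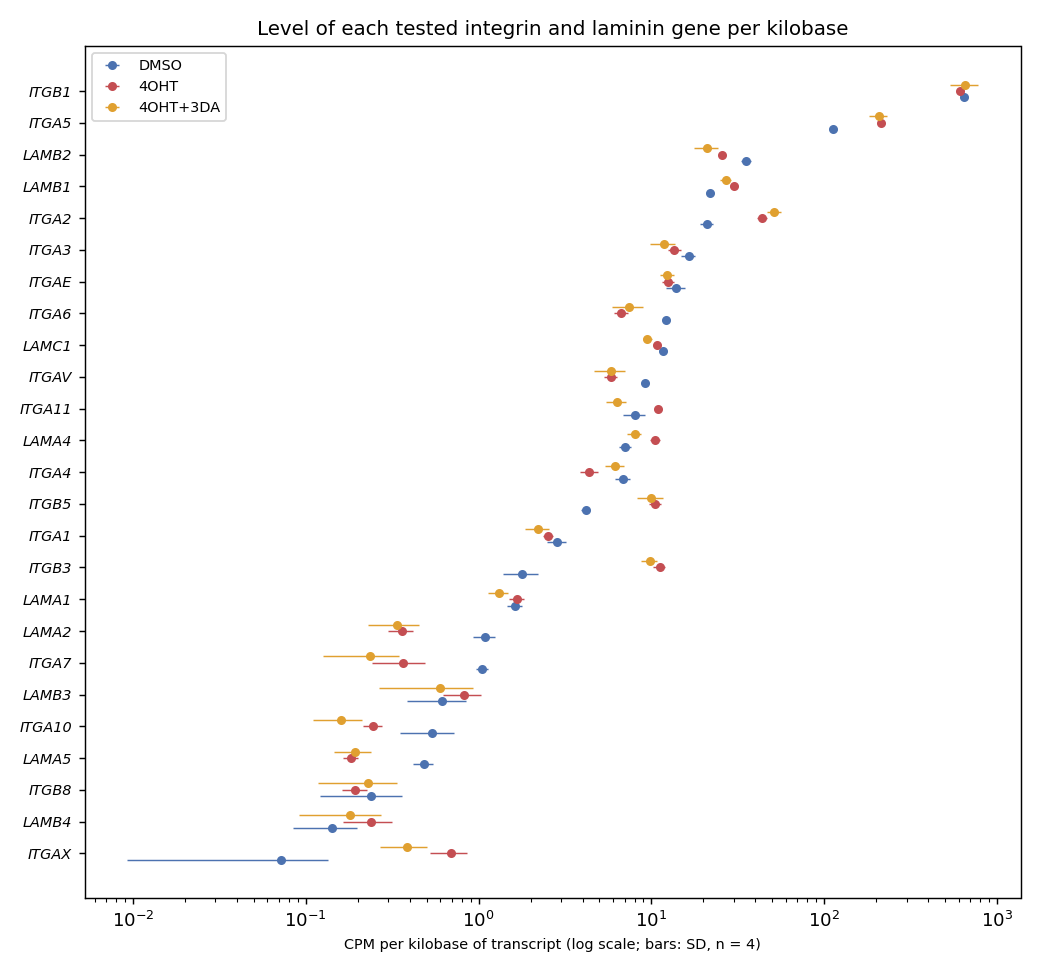
CPM per kilobase of transcript (x axis, log scale) of 25 of the 26 tested genes, as mean and SD of 4 libraries per group, ordered by the DMSO level. ITGB1 and ITGA5 stand above all others in each group, and ITGAX is the lowest of the 25 with DMSO.

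Among laminin chains, shares per kilobase were taken within the alpha and the beta chains. LAMA4 was 68.7% ± 1.58 with DMSO, 82.5% ± 2.03 with 4OHT and 81.2% ± 2.78 with 4OHT+3DA of the alpha chains. LAMA2 made up 10.6% ± 0.911 with DMSO, 2.81% ± 0.432 with 4OHT and 3.47% ± 1.176 with 4OHT+3DA. Among the beta chains LAMB1 was 37.8% ± 0.573 with DMSO, 52.9% ± 0.853 with 4OHT and 55.4% ± 3.05 with 4OHT+3DA, so that LAMB2 led with DMSO and LAMB1 in both groups given 4OHT. These shares are descriptions with no test, and they describe RNA, not assembled trimers.

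**Figure D4:**
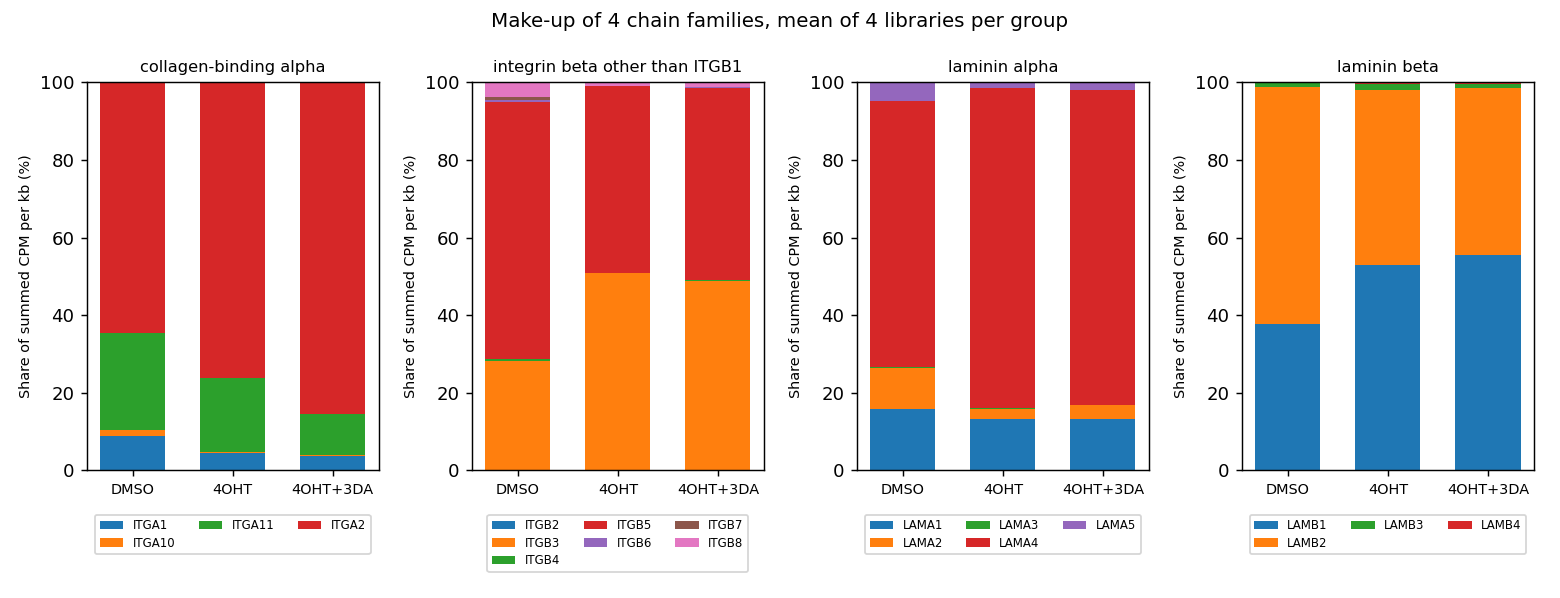
Share (y axis, percent of summed CPM per kilobase, mean of 4 libraries) of each gene in 4 chain families, by group. ITGA2 and LAMA4 take a larger part with 4OHT than with DMSO, and LAMB1 passes LAMB2.

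Promoters were searched for the AP-1 word, since the AP-1 factors FOS and JUN act downstream of RAS. RefSeq windows (GRCh38.p14, 250 bases before to 50 after the start) were found for 26 of the 38 genes. The word TGACTCA, read as TGAGTCA on the other strand, was in 2 of these 26 (7.69%), against 4.92% of the 27305 windows of all genes. Those 2 were ITGA5, which rose, and LAMA3, which was hardly read. Their 150 bases before the start and the first transcribed base are shown because they are the windows with a match, which is in capitals.
ITGA5 (chr12:54419266-54419416, minus strand): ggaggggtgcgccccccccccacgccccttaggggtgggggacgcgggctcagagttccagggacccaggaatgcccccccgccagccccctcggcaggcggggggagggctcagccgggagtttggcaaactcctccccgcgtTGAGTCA
LAMA3 (chr18:23872870-23873020, plus strand): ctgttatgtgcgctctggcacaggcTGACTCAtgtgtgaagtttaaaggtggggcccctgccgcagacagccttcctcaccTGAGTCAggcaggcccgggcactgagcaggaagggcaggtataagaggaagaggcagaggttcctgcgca
In ITGA5 the match began 6 bases before the start and ran across it. The LAMA3 window held a match beginning 125 bases and another 69 bases before the start. The other genes that rose and had a window, ITGA2, ITGA11, ITGB5, LAMA4 and LAMB1, held no match in it. ITGAX and ITGB3, which also rose, had no window and were not searched. The word is a description of the sequence, binding was not measured, and the coordinates are not of the build named for the counts.

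The proteins that act with integrins and laminins were read from 3 lists, chosen with earlier results of these data known. The counts of calls in these lists are descriptions and no independent support. Of 39 adhesion partners inside and beside integrins, 38 were tested with 4OHT against DMSO, and 10 rose, 17 fell and 11 did not pass (median log2 fold change −0.054), where 52.0% of all genes tested passed. LPXN (leupaxin), a paxillin relative, rose from 30.5 ± 3.32 to 147 ± 8.90 CPM, and the tetraspanin CD82 from 56.6 ± 5.09 to 194 ± 14.4 CPM. LIMS2, an adaptor in the complex of integrin-linked kinase, fell from 22.6 ± 2.42 to 4.97 ± 0.979 CPM, and ITGBL1, whose repeats are like those of beta chains, from 79.6 ± 3.41 to 20.4 ± 3.33 CPM. Of 25 integrin ligands, 19 were tested and 5 rose, 10 fell and 4 did not pass (median −0.25). SPP1 (osteopontin), a ligand of alpha V beta 3, rose from 20.004 ± 2.20 to 221 ± 18.3 CPM, and POSTN (periostin) from 96.3 ± 6.26 to 375 ± 35.8 CPM. COL3A1, a fibrillar collagen, fell from 440.2 ± 39.0 to 150.3 ± 15.6 CPM, and LRRC32, which holds latent TGF-beta at the cell surface, from 18.2 ± 3.38 to 6.67 ± 0.515 CPM. Of 31 laminin and basement membrane partners, 25 were tested and 4 rose, 15 fell and 6 did not pass (median −0.51). The 4 named by size of change all fell: COL15A1 from 5.33 ± 0.685 to 0.754 ± 0.555 CPM, FBLN1 from 139 ± 6.56 to 21.6 ± 1.31 CPM, NTN4 from 9.82 ± 2.66 to 1.60 ± 0.886 CPM and FBLN2 from 17.9 ± 1.29 to 3.79 ± 0.588 CPM. The fibroblast markers moved with these groups: 7 of 10 fell and 1 rose, and their sum lay between 10577 and 11542 CPM in the DMSO libraries and between 5701 and 6310 CPM in the 4OHT libraries. Of these markers 3 (COL1A1, COL1A2 and COL3A1) are also on the ligand list, and the part of cell makeup in these changes was not tested.

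With 3DA added to 4OHT, 2 of the 26 genes rose and 4 fell against 4OHT alone, 23.1%, where 26.9% of all genes tested passed (14.4% higher and 12.4% lower). This share of the 26 was near that of all genes. ITGA4 and ITGA2 were the higher ones, ITGA11, LAMA4, LAMB2 and LAMA1 the lower ones, and none of the 6 changed 2-fold, as 4.01% of all genes tested did. The median log2 fold change was −0.19 against 0.0051 for all genes tested, and the median of the absolute values 0.22 against 0.23. With library totals the median of all genes moved to 0.065 and the calls of all genes to 2535 higher and 1207 lower, from 1909 and 1649, and those of the integrins and laminins to 2 higher and 2 lower.

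ITGA11 stood at 38.6, 30.2, 29.4 and 29.01 CPM in the DMSO libraries, 40.9, 44.8, 43.5 and 42.9 CPM in the 4OHT libraries and 23.6, 25.8, 21.1 and 29.04 CPM in the 4OHT+3DA libraries. All 4OHT+3DA libraries lay below all 4OHT libraries, a 1.73-fold fall (log2 fold change −0.79, SE 0.11, edgeR adjusted p = 2.8e-05). LAMA4 stood at 50.9, 44.2, 46.8 and 42.8 CPM in the DMSO libraries, 74.0, 63.1, 71.3 and 66.8 CPM in the 4OHT libraries and 56.8, 49.9, 46.6 and 56.0 CPM in the 4OHT+3DA libraries. LAMA4 fell 1.31-fold, also without overlap (log2 fold change −0.39, SE 0.087, edgeR adjusted p = 0.0024). Of the 5 endothelial markers tested 2 fell as well, where 12.4% of all genes tested passed as lower. ITGA4 stood at 29.8, 31.6, 28.7 and 25.0 CPM in the DMSO libraries, 15.3, 19.4, 20.3 and 18.3 CPM in the 4OHT libraries and 24.1, 24.2, 30.5 and 24.6 CPM in the 4OHT+3DA libraries. ITGA4 rose 1.41-fold, and all 4OHT+3DA libraries lay above the 4OHT libraries (log2 fold change 0.49, SE 0.12, edgeR adjusted p = 0.0038). Side by side, the log2 fold changes of 4OHT against DMSO were 0.44 for ITGA11, 0.58 for LAMA4 and −0.65 for ITGA4, and both comparisons share the 4OHT libraries.

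The other 3 calls ended in some settings. ITGA2 rose from 345 ± 22.9 to 405 ± 39.2 CPM (log2 fold change 0.23, SE 0.080, edgeR adjusted p = 0.038), the same direction as with 4OHT. The call was lost on leaving out 21, 22 or 24 of the 4OHT libraries or 30 or 31 of the 4OHT+3DA libraries (log2 fold change 0.16 to 0.25), in the fit of the 8 libraries compared (0.24), and with a GC correction (0.071). LAMB2 stood at 217, 196, 202 and 186 CPM in the DMSO libraries, 144, 142, 146 and 151 CPM in the 4OHT libraries and 119, 117, 97.5 and 143 CPM in the 4OHT+3DA libraries. LAMB2 fell with overlap between the groups (log2 fold change −0.29, SE 0.090, edgeR adjusted p = 0.023), and its call ended with library totals (−0.23) and without library 24 (4OHT) or 30 (4OHT+3DA) (−0.28 to −0.27). LAMA1 stood at 15.3, 17.6, 15.8 and 13.8 CPM in the DMSO libraries, 14.004, 15.6, 17.2 and 17.5 CPM in the 4OHT libraries and 12.3, 15.0, 11.1 and 12.1 CPM in the 4OHT+3DA libraries. LAMA1 fell with overlap too (log2 fold change −0.35, SE 0.12, edgeR adjusted p = 0.042), and its call ended in 12 of 19 settings (−0.37 to −0.27).

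**Figure D5:**
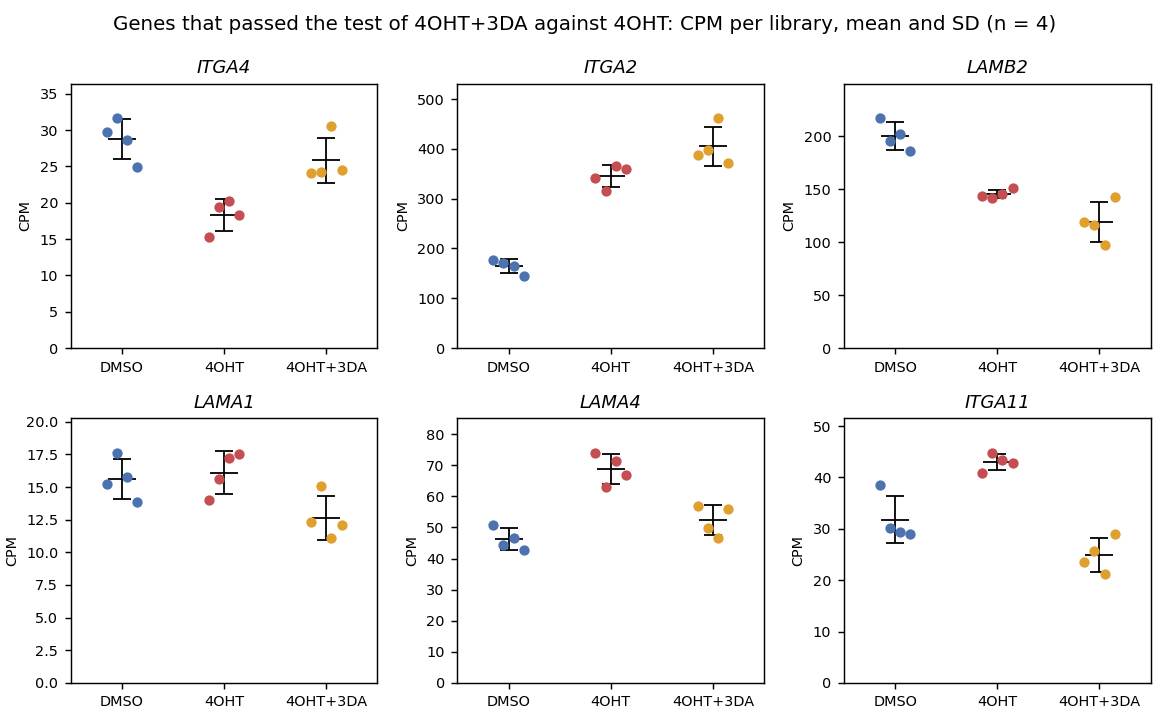
CPM (y axis, from 0) in each library (points) of the 6 genes that passed the test of 4OHT+3DA against 4OHT, by group, with mean and SD (n = 4). ITGA11, LAMA4, ITGA4 and ITGA2 show no overlap between the 4OHT and 4OHT+3DA points, while LAMB2 and LAMA1 do.

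Of the genes that changed most with 4OHT, ITGB3, ITGB5, ITGA5, ITGA7, LAMA2 and LAMA5 did not pass the test of 4OHT+3DA against 4OHT. ITGB3 was at 44.6 ± 3.52 CPM with 4OHT and 39.0 ± 4.00 CPM with 3DA added (edgeR adjusted p = 0.24), and ITGB5 at 46.2 ± 3.54 and 43.6 ± 7.70 CPM (edgeR adjusted p = 0.6). ITGAX was at 3.25 ± 0.804 and 1.82 ± 0.561 CPM, without overlap between the libraries but short of the threshold (edgeR adjusted p = 0.079). ITGA10 (1.30 ± 0.159 and 0.845 ± 0.263 CPM) and LAMC1 (85.3 ± 4.45 and 74.8 ± 4.28 CPM) likewise had no overlap and did not pass (edgeR adjusted p = 0.19 and 0.057). ITGAX passed as lower in the fit of the 8 libraries compared (edgeR adjusted p = 0.048) and without DMSO library 19 (0.045). LAMC1 passed as lower with DESeq2 (adjusted p = 0.037), with RLE factors (0.05) and with the filter on mean CPM (0.049). In all, the libraries of 7 of the 26 did not overlap, where this held for 25.0% of all genes tested. Library 31, whose deviation followed GC content most, was the highest of its group for 7 of the 26 (ITGA1, ITGA2, ITGA4, ITGA6, ITGAE, ITGAV and ITGB1) and the lowest for 12, among them ITGA5, ITGA11, LAMA4 and LAMB2. Without it ITGA1 passed as lower (log2 fold change −0.32, edgeR adjusted p = 0.028), and with a GC correction, chosen after seeing the data, ITGA1 (−0.41) and ITGAV (−0.23) passed as lower. ITGA11, LAMA4 and ITGA4 passed without library 31 and with the correction. Without library 32 the lower calls numbered 7, ITGA3, LAMB1 and LAMB3 being among those added and LAMA1 lost, and without library 24 they numbered 2.

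The same 3 partner lists were read for 3DA. Of 38 adhesion partners tested, 2 rose, 10 fell and 26 did not pass (median log2 fold change −0.035), or 31.6% passing, near the 26.9% of all genes tested. LPXN fell from 147 ± 8.90 to 88.6 ± 8.63 CPM, and FLNC, a filamin that crosslinks actin, from 316 ± 20.1 to 192 ± 32.6 CPM. LIMS2 fell from 4.97 ± 0.979 to 3.31 ± 0.775 CPM, a call that ended in some settings, and CAV1, the caveolae protein, rose from 565 ± 21.7 to 805 ± 83.4 CPM. Of 19 ligands, 5 rose, 6 fell and 8 did not pass (median −0.13, 57.9% passing). ICAM1, the ligand of beta2 integrins, fell from 56.0 ± 8.32 to 10.8 ± 1.70 CPM, SPP1 from 221 ± 18.3 to 69.8 ± 5.598 CPM and CCN2 from 616 ± 4.88 to 414 ± 18.3 CPM, while POSTN rose from 375 ± 35.8 to 584 ± 125 CPM. Of 25 laminin and basement membrane partners, 1 rose, 7 fell and 17 did not pass (median −0.095), and the 32% that passed was again near the share of all genes. FBLN1 rose from 21.6 ± 1.31 to 39.5 ± 4.35 CPM, and FBLN2 fell from 3.79 ± 0.588 to 2.53 ± 0.451 CPM, BMP1, which trims laminin and collagen chains, from 32.6 ± 3.52 to 24.5 ± 3.65 CPM and SPARC from 1499.8 ± 58.8 to 1155 ± 63.1 CPM. The calls of FBLN2 and BMP1 ended in some settings, and the basement membrane partners that fell numbered 3 with library totals or no filter on low counts and 4 without library 21, 22, 23 or 30.

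Against DMSO, cells given 4OHT and 3DA were high in ITGB3 and low in ITGA7, ITGA10 and LAMA2. The DMSO libraries are those of the comparison with 4OHT alone. Here 7 of the 26 were higher and 12 lower (73.1%), where 51.5% of all genes tested passed (27.0% higher and 24.6% lower). ITGAX (5.32-fold), ITGB3 (5.43-fold), ITGA2 (2.47-fold) and ITGB5 (2.38-fold) were higher by over 2-fold. ITGA7 (4.38-fold), ITGA10 (3.34-fold), LAMA2 (3.19-fold) and LAMA5 (2.51-fold) were lower by over 2-fold. Changes of this size passed for 14.9% of all genes tested. Libraries of 16 of the 26 did not overlap, against 44.7%. ITGAX, with 16 reads in the DMSO libraries together, passed the filter only through the groups given 4OHT, where it is high. Its call and its gap to DMSO, which are among those counted here, are to be read with this limit. ITGA4 (28.8 ± 2.80 CPM with DMSO and 25.8 ± 3.12 CPM with 4OHT+3DA, edgeR adjusted p = 0.27) and LAMA4 (46.2 ± 3.55 and 52.4 ± 4.91 CPM, edgeR adjusted p = 0.09) did not pass, though LAMA4 passed as higher without library 31 (log2 fold change 0.24) and with the GC correction (0.25). ITGA11, higher with 4OHT alone, was lower than DMSO here (log2 fold change −0.35, SE 0.11, edgeR adjusted p = 0.012), a call that ended without DMSO library 17 (−0.25). LAMC1 (log2 fold change −0.30, SE 0.072, edgeR adjusted p = 0.0018) and ITGA1 (log2 fold change −0.37, SE 0.12, edgeR adjusted p = 0.014) were lower as well, and the call of ITGA1 ended without DMSO library 18 or 19 (−0.32 and −0.31). LAMA1 was at the threshold (edgeR adjusted p = 0.049) and lost its call in 14 of 19 settings (−0.33 to −0.21). With library totals the calls of all genes were 2801 higher and 4023 lower, from 3572 and 3253.

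The partner lists in this comparison are to be read against the 51.5% of all genes that passed. Beside them, 7 of 10 fibroblast markers fell and 2 rose, and 5 of 5 epithelial markers tested fell, and the part of cell makeup was not tested. Of 38 adhesion partners 9 rose, 17 fell and 12 did not pass (median −0.22), and FERMT1, an epithelial kindlin, rose from 3.37 ± 0.452 to 9.59 ± 1.35 CPM. LPXN stood at 88.6 ± 8.63 CPM, ITGBL1 at 20.2 ± 1.89 CPM and LIMS2 at 3.31 ± 0.775 CPM. Of 19 ligands 4 rose, 10 fell and 5 did not pass (median −0.24), COL1A2 falling from 3315 ± 185 to 859 ± 62.9 CPM. Of 25 basement membrane partners 4 rose, 17 fell and 4 did not pass (median −0.43), among them HSPG2 (perlecan), which fell from 33.7 ± 4.42 to 8.77 ± 1.68 CPM, NTN4, at 1.03 ± 0.449 CPM, and COL15A1, at 0.874 ± 0.307 CPM.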

How the data were processed

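The authors deposited 1 table of read counts, with whole numbers per gene and library and no normalisation. Per the labels' protocols, libraries were made from total RNA with Smart-Seq2 and Nextera XT. The tools named per the submitters' processing notes are featureCounts 1.18.0, TopHat2 2.0.11 and CASAVA 1.8.2, and the builds hg19 and GRCh37. How strand, overlapping genes and multi-mapped reads were handled is not given in the sources used.

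Of 62069 identifiers, 50127 were matched to a symbol. The genes and lists were chosen with earlier results of these data known. Counts over the genes include 1 that is not reported here. All 12 libraries (9451160 to 19291493 reads, grouped by labelled treatment) entered 1 edgeR 4.0.16 fit (R 4.3.3) with filterByExpr (minimum count 10), TMM factors and 3 groups. The SE is the log2 fold change divided by the square root of F. By rule, values per library were given for genes past an adjusted p of 0.05 and 2-fold with 4OHT or with 3DA. Those of ITGA5 and of the genes past the test with 3DA were added after their values were seen. Up to 4 called genes per partner list and comparison were named, by largest change above an average log2 CPM of 1. Alternatives were DESeq2 1.42.0, RLE factors, library totals, each library left out, no filter, a filter on mean CPM of 1, fits of only the 8 libraries in a comparison, shares without length, and, added after seeing the data, a GC correction (loess span 0.4, GC known for 98.0% of genes). On simulated counts of 13248 genes, 79.1%, 79.1% and 83.6% of 2-fold changes were recovered for 4OHT against DMSO, 4OHT+3DA against 4OHT and 4OHT+3DA against DMSO, with 15, 6 and 8 false calls. Of 1.5-fold changes, 70.1%, 55.2% and 37.3% were recovered in the same order, so smaller changes were missed more often.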

Additional observations from a re-analysis of the deposited data

Results flagged for a closer look

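In 4 of 78 groups of 4 libraries, 1 library lay far from the other 3 by Dixon's ratio of gap to range, where chance gives about 1 in 20. ITGA1 was at 29.5 CPM in 4OHT+3DA library 31, against 21.5 to 22.1 CPM in the others of its group. ITGA4 was at 30.5 CPM in the same library, against 24.1 to 24.6 CPM. ITGA11 was at 38.6 CPM in DMSO library 17, the others of its group lying lower, at most 30.2 CPM. ITGA5 was at 915 CPM in 4OHT library 22, against 954 to 962 CPM.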

How the results depend on the processing

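Under the 19 alternatives tried, 17 of 18 calls with 4OHT against DMSO held throughout (not ITGA3), 3 of 6 with 4OHT+3DA against 4OHT (not ITGA2, LAMA1 and LAMB2) and 16 of 19 with 4OHT+3DA against DMSO (not ITGA1, ITGA11 and LAMA1). In the 3DA comparison with 4OHT, the integrin and laminin genes called higher numbered 1 in place of 2 with the 8 libraries compared and with the GC correction, and 1 to 2 without one library (1 without 21, 22, 24, 30 or 31). Those called lower numbered 2 in place of 4 with library totals, and 2 to 7 without one library (2 without 24, 7 without 32). Adhesion partners called higher numbered 1 to 2 without one library (1 without 23 or 30). Basement membrane partners called higher numbered 3 in place of 1 with the GC correction and 1 to 2 without one library (2 without 31), and those called lower 3 in place of 7 with library totals or no filter, 4 with the 8 libraries, and 4 to 7 without one library. Some log2 fold changes that did not pass changed sign. With 4OHT against DMSO, ITGB1 was 0.012 with the GC correction, and LAMA1 was −0.11 with library totals and −0.024 to 0.11 without one library. With 4OHT+3DA against 4OHT, library totals gave 0.024 for ITGA5 and 0.046 for ITGAE, no filter gave 0.015 for ITGAE, and the GC correction gave 0.043 for ITGA5, 0.079 for ITGAE, −0.23 for ITGAV (which then passed) and −0.083 for ITGB1. Without one library the ranges were −0.11 to 0.030 for ITGA5, −0.0055 to 0.23 for ITGA6, −0.051 to 0.043 for ITGAE, −0.13 to 0.096 for ITGAV, −0.029 to 0.17 for ITGB1, −0.082 to 0.43 for ITGB8, −0.32 to 0.083 for LAMA2 and −0.025 to 0.22 for LAMA5. With 4OHT+3DA against DMSO, ITGB1 was −0.072 with library totals and −0.071 with the GC correction, LAMB3 was 0.090 with the latter, and the ranges without one library were −0.096 to 0.11 for ITGB1, −0.40 to 0.19 for ITGB8 and −0.47 to 0.13 for LAMB3. Shares computed without transcript length, for DMSO, 4OHT and 4OHT+3DA, were 59.2, 75.9 and 74.2% for LAMA4, 71.6, 82.8 and 89.1% for ITGA2 and 48.5, 59.9 and 57.7% for ITGA5, and for ITGB1 98.9% with DMSO and 96.2% with 4OHT. The cause of these changes was not tested. No paired analysis was possible because the groups share no replicate numbers. The 12 genes with too few reads were left out by the filter, and no test of them is given.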

Other observations

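Some of these genes lie next to each other (RefSeq gene order, GRCh38.p14), and neighbours had different values. On chromosome 16, ITGAX rose with 4OHT between ITGAM, with no read, and ITGAD, with 19 reads. On chromosome 5, ITGA2 rose and ITGA1, the neighbouring integrin gene, did not pass. On chromosome 7, LAMB1 rose and its neighbour LAMB4 did not pass.

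Summed over a family, CPM per kilobase of the integrin alpha chains was 205 ± 9.08 with DMSO, 315 ± 7.46 with 4OHT and 312 ± 19.5 with 4OHT+3DA (SD, n = 4). The sum of the beta chains other than ITGB1 was 6.32 ± 0.500 with DMSO, 21.96 ± 1.64 with 4OHT and 20.03 ± 2.20 with 4OHT+3DA. The collagen-binding alpha chains summed to 32.3 ± 3.00 with DMSO, 57.6 ± 2.82 with 4OHT and 60.2 ± 4.65 with 4OHT+3DA. The laminin-binding alpha chains summed to 29.7 ± 0.933 with DMSO, 20.7 ± 1.60 with 4OHT and 19.4 ± 1.49 with 4OHT+3DA. These sums are descriptions, with no test. The first 3 had a higher mean with 4OHT than with DMSO and the last a lower one. The sum of all integrin beta chains, ITGB1 included, was 651 ± 34.4 with DMSO, 637 ± 26.1 with 4OHT and 677 ± 119 with 4OHT+3DA. From DMSO to 4OHT, ITGA5 alone went from 113 to 213 CPM per kilobase and ITGA2 from 20.9 to 43.9. Of the 12 integrin alpha chains tested, 4 rose and 6 fell with 4OHT, where 26.5% of all genes tested passed as higher and 25.5% as lower.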
